A study of Rattus norvegicus with 60 samples.

Results

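The liver responses of rats to N,N-dimethyl-p-toluidine (DMPT) and to p-toluidine were set against each other at 20 mg/kg per day. RNA from pieces of the left lateral liver lobe had been measured on 1-colour Affymetrix 3′ expression arrays, 1 log2 level per probe set. The quantity examined was the response to DMPT minus the response to p-toluidine, where a response is the log2 level in dosed rats minus the log2 level in the vehicle rats of the same chemical. The arrays were chosen by their titles: 20 of the 60 arrays of the series, 5 in each of 4 groups. The groups were livers of rats given DMPT at 20 mg/kg, livers of the DMPT vehicle rats, livers of rats given p-toluidine at 20 mg/kg, and livers of the p-toluidine vehicle rats. All were male F344/N rats, 5 to 6 weeks old at the start, and all received corn oil by gavage on 5 consecutive days, the vehicle rats without a chemical. The doses of p-toluidine were taken from the sample labels, since the protocol text spells out doses for DMPT only. The labels do not say which arrays share a cage, so the p-values reflect how far these samples spread, which may be technical in part. The remaining arrays (doses of 1, 6, 60 and 120 mg/kg) entered only the estimate of the spread and the comparison across doses.

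DMPT and p-toluidine are aromatic amines that differ by the methyl groups on the nitrogen: DMPT carries a pair of them and p-toluidine has a free amine. In the liver, such amines are oxidized by cytochrome P450 and flavin-containing monooxygenases, and the products are detoxified by conjugation to glutathione, glucuronic acid or sulfate. Electrophilic products can release the transcription factor NRF2 from its inhibitor, and NRF2 then drives glutathione S-transferases and other protective genes through antioxidant response elements in their promoters. Gstp1, the pi-class glutathione S-transferase, is scarce in normal adult rat liver and is widely used to mark altered liver foci. Because doses were matched by mass, 20 mg/kg corresponded to 148 µmol/kg of DMPT and 187 µmol/kg of p-toluidine, and no comparison at equal molar dose was possible.

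The arrays of the chemicals lay at different overall levels, with array medians of 3.54 to 3.55 in DMPT-dosed livers, 3.54 to 3.57 in DMPT vehicle livers, 2.76 to 2.79 in p-toluidine-dosed livers and 2.73 to 2.77 in p-toluidine vehicle livers. Levels were therefore never compared across the chemicals. Hepatocyte markers averaged 12.38 to 12.43 and 12.42 to 12.51 over the dosed and vehicle DMPT arrays, and 12.08 to 12.22 and 12.14 to 12.26 over the dosed and vehicle p-toluidine arrays, near the top of the scale on every array. DMPT vehicle replicate 1 stood apart: its mean over 11 sinusoidal endothelial markers was 5.90, against 6.38 to 6.53 on the other vehicle arrays, and its mean over 13 macrophage markers was 6.67, against 7.10 to 7.17. The median difference of the endothelial list was 0.18 with DMPT vehicle replicate 1 and 0.08 without it. In p-toluidine vehicle replicate 5, the male-biased urinary protein gene Mup5 stood at 3.05 (7.32 to 8.24 on the others) and the acute phase gene A2m at 7.54 (5.03 to 5.31 on the others). Without DMPT vehicle replicate 1 the difference of responses had 1 call and DMPT 631 calls, and without p-toluidine vehicle replicate 5 the difference had 0 calls and p-toluidine 356. The gap between the 3′ and 5′ probe sets of beta-actin, which widens as RNA degrades, was 1.30 ± 0.12 in DMPT-dosed and 1.48 ± 0.15 in DMPT vehicle livers, and 1.61 ± 0.23 in p-toluidine-dosed and 1.80 ± 0.15 in p-toluidine vehicle livers (SD, n = 5 each). In 4 two-sided exact permutation tests over this gap and that of Gapdh, the adjusted p was 0.175 in each.

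Gstp1 rose most with each chemical at 20 mg/kg, Gstt3, Abcc3 and other conjugation and export genes rose with both, Scd fell with both, and no probe set passed the test of a difference between the responses. DMPT changed 855 of 31042 probe sets (2.75%), 522 higher (1.68%) and 333 lower (1.07%) than vehicle. p-Toluidine changed 392 (1.26%), 230 higher (0.741%) and 162 lower (0.522%). The p-toluidine count was 133 with only the arrays compared, 244 on its own arrays and 188 without vehicle replicate 4, so the shares of p-toluidine calls below hold for the fit of all arrays. With each array centred on its median, the p-toluidine calls became 136 higher and 151 lower, and those of DMPT 497 higher and 224 lower. The difference of responses was called for 0 probe sets (0.0%) in the limma fit of all arrays, where an adjusted p of 0.05 or less was called, and the lowest value was 0.0656. At an unadjusted p of at most 0.05 there were 2280 probe sets (7.34%), 1164 with the higher response to DMPT (3.75%) and 1116 with the lower (3.6%), where 1552 would be met if p were uniform. The precision was such that 30620 probe sets (98.65%) had a 95% interval of the difference lying within -1 to 1, a range of 2-fold in either direction. This count of calls depended on the fit: when only the 20 arrays compared were used, 39 probe sets (0.126%) were called, 36 of them with the higher (0.116%) and 3 with the lower response to DMPT (0.00966%).

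The responses were alike in direction among the probe sets that moved. Both chemicals changed 146 probe sets, which is 17.08% of the DMPT calls and 37.24% of the p-toluidine calls. All 146 moved the same way, 104 higher and 42 lower. Among the 855 DMPT calls, 758 had a p-toluidine response of the same sign (88.65%), and among the 392 p-toluidine calls, 359 had a DMPT response of the same sign (91.58%), against 57.01% of all probe sets. The probe sets called higher with DMPT had a median p-toluidine response of 0.19, and those called higher with p-toluidine had a median DMPT response of 0.30. Across all probe sets the responses correlated with a Pearson r of 0.40 and a Spearman rho of 0.26, which is a description, since probe sets of one array are not independent. Of the 146 probe sets, 143 had an interval of the difference within -1 to 1. Being called with both chemicals favours alike responses. Of the 1101 probe sets called with either chemical, 996 had such an interval, so in the others a 2-fold difference lay within or beyond the interval's reach.

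**Figure D1:**
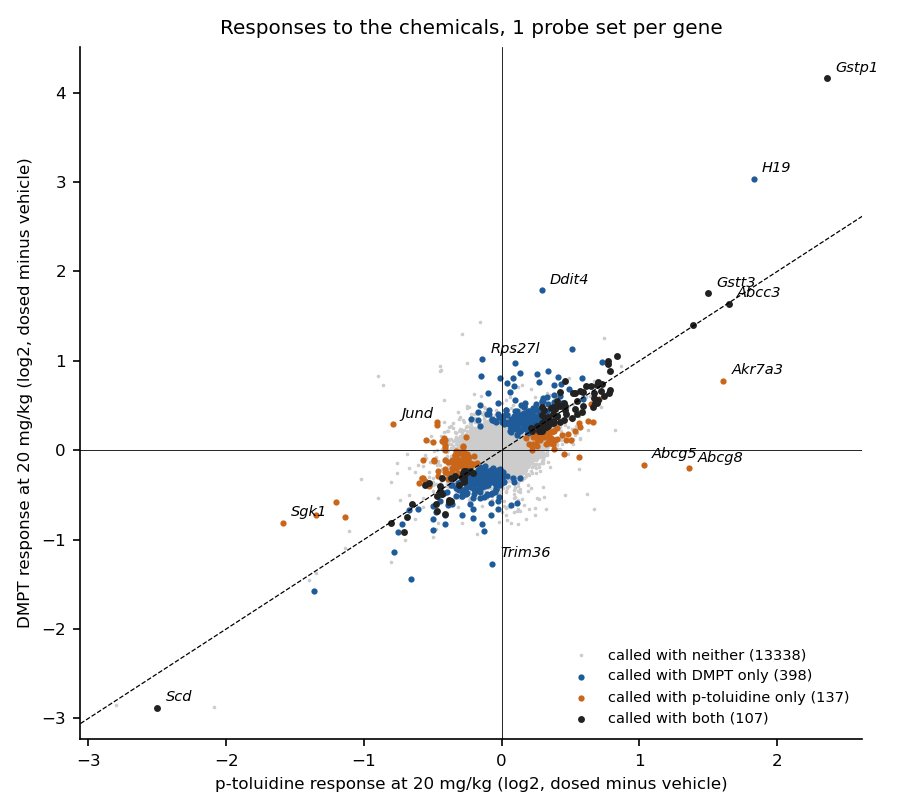
Each point is a gene, with its p-toluidine response on the x axis and its DMPT response on the y axis (log2, dosed minus own vehicle, 20 mg/kg; dashed line, equal responses; 13980 genes without a provisional symbol). The 107 genes called with both chemicals lie in the upper right and lower left quadrants, with Gstp1 above the dashed line and Abcg5 and Abcg8 far to its right.

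The log2 level of Gstp1 was 9.37, 10.55, 11.01, 10.81 and 9.62 in DMPT-dosed livers, against 5.65, 6.37, 5.72, 6.53 and 6.30 in DMPT vehicle livers. The p-toluidine-dosed livers had 8.16, 9.19, 8.75, 6.52 and 7.15, against 5.08, 5.91, 5.32, 5.90 and 5.77 in p-toluidine vehicle livers. Dosed and vehicle arrays did not overlap with either chemical, and replicates 4 and 5 of the p-toluidine livers were lower than the other dosed arrays. Gstp1 rose 17.9-fold with DMPT (log2 4.16 ± 0.35 SE, adjusted p = 1.99e-12) and 5.12-fold with p-toluidine (2.36 ± 0.35 SE, adjusted p = 3.12e-05). The difference was 1.80 (95% interval 0.82 to 2.79) and did not pass the test over all probe sets (adjusted p = 0.231). Leaving out single arrays moved it between 1.44 and 2.11, and the adjusted p between 0.0743 and 0.499.

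Gpx2, a glutathione peroxidase of epithelia and an NRF2 target, rose to 5.01, 5.24, 5.43, 5.10 and 4.89 in DMPT-dosed livers, against 3.77, 3.69, 4.81, 4.37 and 4.56 in DMPT vehicle livers. The p-toluidine-dosed livers had 4.72, 5.14, 4.58, 4.64 and 4.71, against 3.81, 3.70, 3.92, 4.23 and 4.17 in p-toluidine vehicle livers. Every dosed array lay above its vehicle arrays, and the difference of responses was 0.10 (-0.48 to 0.68). The promoters of Gstp1 and Gpx2 are shown because both genes rose with both chemicals and both windows hold the core of the antioxidant response element, TGACNNNGC or its reverse complement. The sequences are the 150 bases before the RefSeq start in assembly GRCr8, on the gene's strand, with the motif in capitals, for Gstp1 at chr1:210769706-210769855 (minus strand) and for Gpx2 at chr6:101230034-101230183 (minus strand).
Gstp1: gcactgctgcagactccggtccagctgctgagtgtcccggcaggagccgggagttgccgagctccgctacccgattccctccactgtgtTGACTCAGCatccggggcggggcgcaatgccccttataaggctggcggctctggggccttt
Gpx2: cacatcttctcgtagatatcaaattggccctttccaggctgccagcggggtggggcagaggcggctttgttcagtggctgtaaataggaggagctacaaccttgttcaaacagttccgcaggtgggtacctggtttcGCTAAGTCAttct
The Gstp1 motif starts at position -61 and the Gpx2 motif at position -13, counted from the start site. Among genes called with both chemicals, 75 were higher and 32 lower. Searched on both strands of the 250 bases before the start, TGACNNNGC was present in 16 of 65 promoters of the genes higher with both (24.6%), in 6 of 32 promoters of the genes lower with both (18.8%), and in 10.1% of the 33469 promoters of the RefSeq table. The dioxin response core GCGTG, bound by the aryl hydrocarbon receptor, was present in 43.1% of the promoters of genes higher with both, 46.9% of those lower with both and 25.9% of all. A match describes the letters only and is no evidence of binding.

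Glutathione S-transferases rose with both chemicals. Of 20 family members on the array, 8 rose and 0 fell with DMPT, 8 rose and 0 fell with p-toluidine, and 7 rose with both, with list medians of 0.31 and 0.28. For comparison with this and every later list, 3.58% of all 14217 genes changed with DMPT (1.91% higher and 1.67% lower). With p-toluidine, 1.72% changed (0.921% higher and 0.795% lower). Gstt3, a theta-class enzyme, stood at 10.06, 10.11, 9.98, 9.48 and 9.34 in DMPT-dosed livers, against 7.48, 7.61, 8.27, 8.25 and 8.59 in DMPT vehicle livers. Its values in p-toluidine-dosed livers were 8.91, 9.56, 9.21, 9.06 and 8.93, against 7.72, 7.46, 7.40, 7.89 and 7.73 in p-toluidine vehicle livers. The arrays did not overlap, the rises were 1.76 ± 0.20 and 1.5 ± 0.20, and the difference was 0.26 (-0.31 to 0.82). Gsta3 rose by 1.40 ± 0.36 and 1.39 ± 0.36 (adjusted p = 0.02 and 0.0368), Gstm1 by 0.72 ± 0.09 and 0.65 ± 0.09, and Gsta4 by 0.65 ± 0.10 and 0.42 ± 0.10. The p-toluidine call of Gsta3 was lost on leaving out any 1 array except p-toluidine-dosed replicate 3 and vehicle replicate 5, and the highest adjusted p, 0.114, came without vehicle replicate 4. Probe sets of this family may also catch transcripts of close paralogs, whose part was not tested. The difference of responses was called for 0 of the 20 members, and outside Gstp1 the point estimates ran no higher than 0.28.

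Among 25 NRF2 targets, 4 rose and 2 fell with DMPT, and 5 rose and 2 fell with p-toluidine, of which 4 were called with both (list medians 0.18 and 0.16). Gclm, the modifier subunit of the enzyme that limits glutathione synthesis, rose by 0.48 ± 0.10 and 0.37 ± 0.10. Ptgr1, a reductase of lipid aldehydes and prostaglandins, rose by 0.66 ± 0.15 and 0.57 ± 0.15. Txnrd1, cytosolic thioredoxin reductase, fell by 0.26 with DMPT and fell by 0.28 with p-toluidine, opposite to its usual direction as an NRF2 target. Nqo1 did not pass with either chemical (0.33 and 0.45).

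Akr7a3, the aflatoxin aldehyde reductase, leaned towards p-toluidine. It stood at 9.02, 9.24, 9.26, 9.06 and 8.0 in DMPT-dosed livers, against 7.94, 7.68, 8.46, 8.58 and 8.05 in DMPT vehicle livers. Dosing with p-toluidine gave 9.23, 9.28, 8.75, 9.46 and 9.34, against 7.32, 7.52, 7.74, 7.70 and 7.73 in p-toluidine vehicle livers. DMPT-dosed replicate 5 lay among the vehicle arrays, while the p-toluidine groups were separate. The response was 0.78 ± 0.24 with DMPT (adjusted p = 0.0625) and 1.61 ± 0.24 with p-toluidine (adjusted p = 3.12e-05), a difference of -0.83 (-1.51 to -0.16, adjusted p = 0.59). Slc7a11, the cystine carrier that feeds glutathione synthesis, leaned the other way: it rose by 0.81 ± 0.23 with DMPT (adjusted p = 0.0416) and stood at -0.01 ± 0.23 with p-toluidine, a difference of 0.81 (0.15 to 1.47, adjusted p = 0.587). DMPT-dosed replicate 1, at 1.81, lay among the DMPT vehicle arrays (1.61 to 2.46), and the other dosed arrays (2.79 to 3.51) lay above them. Slc7a11 stood at 1.35 to 1.71 in p-toluidine-dosed and 1.21 to 1.88 in p-toluidine vehicle livers. It lay below the array median on every array of the 4 groups, and the effect of this low level was not tested.

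Abcc3, the export pump for glucuronides and other conjugates on the blood side of the hepatocyte, rose with both chemicals. It stood at 6.2, 6.73, 6.93, 6.41 and 6.37 in DMPT-dosed livers, against 4.16, 3.76, 6.23, 4.73 and 5.56 in DMPT vehicle livers. With p-toluidine the dosed livers had 5.88, 5.88, 5.24, 5.64 and 5.50, against 4.04, 3.18, 3.51, 3.94 and 5.24 in p-toluidine vehicle livers. Vehicle arrays were widely spread, and the highest vehicle array with DMPT (6.23) lay just above the lowest dosed one. The rises were 1.64 ± 0.31 and 1.65 ± 0.31 (adjusted p = 0.000691 and 0.00202), and the difference was -0.01 (-0.89 to 0.87).

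Of 14 genes that respond to the drug receptors CAR and PXR, 5 rose and 1 fell with DMPT, and 4 rose and 0 fell with p-toluidine. Aldh1a1, a retinaldehyde dehydrogenase, rose by 0.64 ± 0.13 and 0.78 ± 0.13, the drug pump gene Abcb1a by 0.61 ± 0.18 and 0.74 ± 0.18, the glucuronosyltransferase Ugt2b1 by 0.64 ± 0.12 and 0.53 ± 0.12, and Cyp3a18 by 0.40 ± 0.11 and 0.55 ± 0.11. Cyp3a9, a female-biased cytochrome P450, was the member that fell with DMPT. It stood at 3.03, 2.43, 2.23, 2.24 and 2.26 in DMPT-dosed livers against 4.69, 3.80, 2.96, 3.89 and 4.06 in DMPT vehicle livers (-1.44 ± 0.30, adjusted p = 0.00259). Its p-toluidine response was -0.66 ± 0.30 (adjusted p = 0.367), and the difference was -0.78 (-1.65 to 0.08). The p-toluidine-dosed livers had 2.22 to 3.00 and the p-toluidine vehicle livers 2.15 to 4.59. All DMPT-dosed and several p-toluidine values of Cyp3a9 lay below the array medians, and the effect of this low level was not tested. Of 16 glucuronosyltransferases and sulfotransferases, 4 rose with DMPT and 2 with p-toluidine, and 0 fell with either.

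A list of 22 genes covered amine and methyl-group metabolism, and not all of its enzymes act on aromatic amines. With DMPT 1 rose and 2 fell (Nnmt and Pemt), and with p-toluidine 2 rose and 1 fell (Nnmt). Fmo1, a flavin monooxygenase that oxidizes tertiary amines, rose by 0.50 ± 0.10 with DMPT and 0.46 ± 0.10 with p-toluidine, and the N-methyltransferase Nnmt fell by 0.40 and fell by 0.45. The widest gap in the list was at Inmt, an indolethylamine N-methyltransferase, with -0.96 (-2.0 to 0.08), where 1 p-toluidine vehicle array stood at 7.2 and the others at 4.07 to 4.96. Of 7 aryl hydrocarbon receptor targets, 0 changed with either chemical, and Cyp1a2 stood at -0.20 ± 0.12 and 0.05 ± 0.12.

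In fatty acid metabolism the shared fall was that of Scd, the stearoyl-CoA desaturase. It stood at 5.18, 4.85, 4.72, 4.90 and 5.55 in DMPT-dosed livers, against 8.47, 10.63, 6.39, 7.81 and 6.30 in DMPT vehicle livers. The p-toluidine-dosed livers had 4.09, 3.43, 3.27, 4.75 and 4.34, against 6.33, 5.99, 7.28, 7.75 and 5.04 in p-toluidine vehicle livers. Dosed arrays lay close together and below all vehicle arrays, which ranged widely. Scd fell by 2.88 with DMPT (adjusted p = 0.000124) and fell by 2.50 with p-toluidine (adjusted p = 0.00299), and the difference was -0.38 with an interval from -1.76 to 1.01. The desaturases Fads1 and Fads2, which make polyunsaturated fatty acids, rose instead, by 0.49 ± 0.08 and 0.66 ± 0.12 with DMPT and by 0.45 ± 0.08 and 0.72 ± 0.12 with p-toluidine. Over the 20 genes of fatty acid synthesis, 2 rose and 4 fell with DMPT, and 2 rose and 2 fell with p-toluidine. Thrsp, a lipogenic regulator, fell by 0.76 with DMPT (adjusted p = 0.0165) and stood at -0.21 ± 0.19 with p-toluidine, a difference of -0.55 (-1.09 to 0.00). Of 24 PPARA targets, 3 rose with DMPT and 2 with p-toluidine and 0 fell; the peroxisomal enzyme gene Ehhadh rose by 0.64 ± 0.17 and 0.67 ± 0.17. Of 17 genes of cholesterol synthesis and uptake, 0 changed with either chemical, with list medians of 0.23 and 0.32.

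Further genes called with both chemicals were named by the size of their mean response after the values were seen. Epcam, an adhesion molecule of biliary and progenitor cells, stood at 6.37, 6.09, 6.2, 6.38 and 6.25 in DMPT-dosed livers, against 4.97, 5.76, 5.26, 5.20 and 5.23 in DMPT vehicle livers. The p-toluidine-dosed livers had 4.93, 4.95, 5.16, 4.94 and 4.85, against 4.18, 4.30, 3.60, 4.53 and 4.38 in p-toluidine vehicle livers. All dosed arrays lay above their vehicle arrays (0.97 ± 0.13 and 0.77 ± 0.13), and Epcam was the 1 of 10 cholangiocyte and progenitor markers that changed with either chemical. Arrdc3, an arrestin-domain adaptor, rose by 1.06 ± 0.19 and 0.84 ± 0.19, Acsm2, a medium-chain acyl-CoA synthetase, by 1.00 ± 0.17 and 0.77 ± 0.17, and Isyna1, which makes inositol phosphate, by 0.74 ± 0.16 and 0.73 ± 0.16. Among the falls, the cyclin gene Ccnd1 stood at 7.03, 7.52, 6.69, 6.87 and 7.09 in DMPT-dosed livers, against 8.15, 7.60, 7.93, 7.61 and 7.94 in DMPT vehicle livers. With p-toluidine it stood at 5.85, 5.88, 5.61, 5.90 and 5.96 in dosed livers, against 6.36, 6.2, 6.29, 6.98 and 7.38 in vehicle livers. Its groups were separate with both chemicals, and it fell by 0.81 and fell by 0.80, with a difference of 0.00 (-0.54 to 0.53). Urad, an enzyme of uric acid breakdown, fell by 0.75 and fell by 0.69, and Phlda3, a p53 target that restrains AKT, fell by 0.92 and fell by 0.71.

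**Figure D2:**
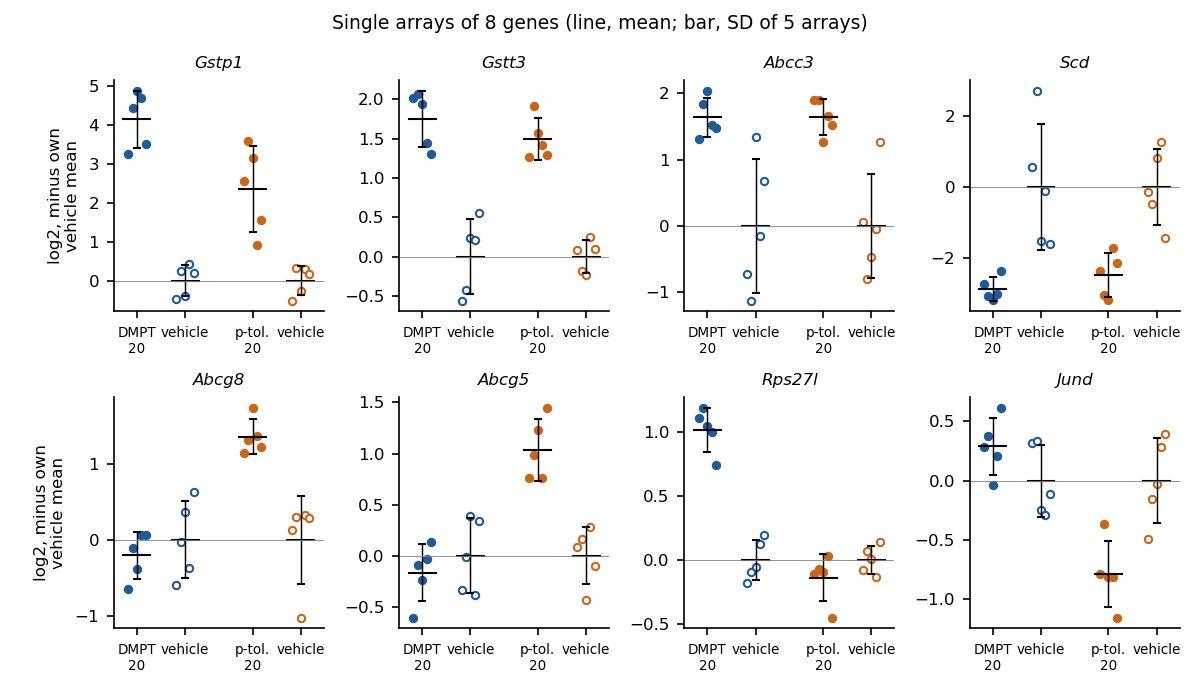
Log2 level of single arrays minus the mean of the vehicle arrays of the same chemical for 8 genes (filled points, 20 mg/kg; open points, vehicle; line, mean; bar, SD of 5 arrays). Gstp1, Gstt3, Abcc3 and Scd moved with both chemicals, all 5 p-toluidine-dosed arrays lay above their vehicle arrays for Abcg8 and Abcg5, and all 5 DMPT-dosed arrays did for Rps27l.

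Several large responses passed the test with 1 chemical, which does not show that the chemicals differ, since the difference itself was not called for any of them. H19, a fetal long noncoding RNA, stood at 9.02, 10.07, 10.08, 9.89 and 9.38 in DMPT-dosed livers, against 6.61, 5.09, 8.63, 6.21 and 6.68 in DMPT vehicle livers. Dosing with p-toluidine gave 8.98, 9.28, 6.74, 7.44 and 7.54, against 4.78, 5.39, 6.63, 5.11 and 8.89 in p-toluidine vehicle livers. The DMPT groups were separate and the p-toluidine groups overlapped through vehicle replicate 5. Its response was 3.04 ± 0.64 (adjusted p = 0.00253) with DMPT and 1.83 ± 0.64 (adjusted p = 0.165) with p-toluidine, a difference of 1.21 (-0.61 to 3.03).

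Ddit4, a stress-induced inhibitor of mTORC1, stood at 5.43, 7.97, 6.97, 7.14 and 7.38 in DMPT-dosed livers, against 6.08, 4.64, 5.59, 5.02 and 4.61 in DMPT vehicle livers. With p-toluidine it stood at 5.63, 6.75, 4.43, 5.07 and 4.49 in dosed livers, against 4.15, 4.6, 5.32, 4.46 and 6.39 in vehicle livers. DMPT-dosed replicate 1 lay among its vehicle arrays, and the p-toluidine groups overlapped throughout. The rise of 1.79 ± 0.44 with DMPT (adjusted p = 0.0119) had an adjusted p of 0.0629 without DMPT-dosed replicate 2. The p-toluidine response was 0.29 ± 0.44 and the difference 1.5 (0.26 to 2.74, adjusted p = 0.601). Trim36, a ubiquitin ligase gene, stood at 2.22, 2.59, 3.03, 3.04 and 3.5 in DMPT-dosed livers, against 4.26, 4.13, 4.10, 4.14 and 4.13 in DMPT vehicle livers, and fell by 1.27 (adjusted p = 0.00716). The p-toluidine-dosed livers had 1.88 to 3.38 and the p-toluidine vehicle livers 2.15 to 2.94, around the vehicle array medians of 2.73 to 2.77. Whether a fall could be seen at so low a level was not tested. The p-toluidine response of Trim36 was -0.07 ± 0.30 and the difference -1.21 (-2.05 to -0.37, adjusted p = 0.47). Oat, ornithine aminotransferase of pericentral hepatocytes, fell by 1.14 with DMPT and stood at -0.78 ± 0.24 (adjusted p = 0.0834) with p-toluidine. Serpinb9b fell by 1.58 with DMPT (adjusted p = 0.02) and stood at -1.36 ± 0.41 (adjusted p = 0.0843) with p-toluidine. Its DMPT call was lost with only the arrays compared (adjusted p = 0.0611), with the beta-actin gap as a covariate (0.0625), and without DMPT-dosed replicate 1 (0.101), DMPT vehicle replicate 1 (0.0917) or DMPT vehicle replicate 3 (0.0846).

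The largest called p-toluidine falls after Scd had DMPT responses of the same sign that did not pass. Sgk1, a glucocorticoid- and osmosensitive kinase, stood at 6.65, 7.46, 6.72, 6.30 and 6.38 in p-toluidine-dosed livers, against 7.89, 8.85, 8.28, 8.15 and 8.28 in p-toluidine vehicle livers. These groups were separate. It fell by 1.59 with p-toluidine (adjusted p = 0.000804) against -0.81 ± 0.28 with DMPT (adjusted p = 0.114), a difference of 0.78 (-0.02 to 1.58). The taurine carrier gene Slc6a6 stood at -0.73 ± 0.28 with DMPT and fell by 1.35 with p-toluidine, the phosphate carrier gene Slc34a2 at -0.58 ± 0.30 and fell by 1.20, and the mitochondrial carrier gene Slc25a25 at -0.75 ± 0.24 and fell by 1.14. The Slc6a6 call was lost with only the arrays compared (adjusted p = 0.069), and the Slc34a2 call without p-toluidine vehicle replicate 2 or 4 or p-toluidine-dosed replicate 1, 2 or 5 (adjusted p of up to 0.122).

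Abcg5 and Abcg8, whose products pair to form the sterol exporter of the bile canaliculus and the gut, had the most negative differences among the members of all 32 gene lists. Abcg8 stood at 4.85, 5.39, 5.11, 5.56 and 5.57 in DMPT-dosed livers, against 4.91, 5.47, 5.87, 5.13 and 6.13 in DMPT vehicle livers. With p-toluidine the dosed livers had 5.33, 5.51, 5.93, 5.56 and 5.41, against 4.32, 4.49, 3.16, 4.51 and 4.47 in p-toluidine vehicle livers. The DMPT groups overlapped and the p-toluidine groups did not, with vehicle replicate 3 far below the other vehicle arrays. Abcg5 stood at 6.30, 6.82, 6.67, 6.88 and 7.04 in DMPT-dosed livers, against 6.57, 6.90, 7.30, 6.52 and 7.25 in DMPT vehicle livers. In p-toluidine-dosed livers Abcg5 stood at 6.37, 6.6, 6.84, 6.37 and 7.06, against 5.70, 5.78, 5.18, 5.89 and 5.51 in p-toluidine vehicle livers. It showed the same pattern of overlap. Abcg8 rose 2.56-fold and Abcg5 2.04-fold with p-toluidine (adjusted p = 0.00774 and 0.00745), while their DMPT responses were -0.20 ± 0.29 and -0.16 ± 0.22.

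The difference was -1.56 (-2.39 to -0.73, adjusted p = 0.208) for Abcg8 and -1.20 (-1.83 to -0.57, adjusted p = 0.196) for Abcg5. Without p-toluidine vehicle replicate 3 the Abcg8 difference was -1.31 (adjusted p = 0.397). With only the 20 arrays compared, Abcg5 passed (adjusted p = 0.047) and Abcg8 did not (adjusted p = 0.0695). The stretch between the genes is shown because they moved together and lie head to head. Their RefSeq starts in GRCr8, 15717730 for Abcg8 and 15717936 for Abcg5, are separated by 205 bases at chr6:15717731-15717935, given on the plus strand, with the 1 match to TGACNNNGC in capitals.
Abcg8 to Abcg5: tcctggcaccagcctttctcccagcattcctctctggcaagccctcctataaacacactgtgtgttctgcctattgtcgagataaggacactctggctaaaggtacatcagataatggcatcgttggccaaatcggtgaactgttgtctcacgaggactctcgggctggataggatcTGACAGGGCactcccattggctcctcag
Over all 23 bile acid enzymes and organic anion transporters, 1 rose and 0 fell with DMPT (Abcc3), and 3 rose and 0 fell with p-toluidine (Abcc3, Abcg5 and Abcg8). Nr1i3, the gene of the receptor CAR, leaned the same way, at -0.08 ± 0.15 with DMPT and 0.56 ± 0.15 with p-toluidine (adjusted p = 0.0417), a difference of -0.64 (-1.07 to -0.22, adjusted p = 0.422).

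The 10 genes with the lowest p for the difference were named after their values were seen, and none passed over all probe sets. Rps27l, a paralog of a small ribosomal subunit protein and a known p53 target, stood at 6.40, 6.48, 6.34, 6.29 and 6.03 in DMPT-dosed livers, against 5.11, 5.20, 5.24, 5.42 and 5.49 in DMPT vehicle livers. With p-toluidine it stood at 5.42, 5.46, 5.44, 5.56 and 5.08 in dosed livers, against 5.45, 5.60, 5.54, 5.4 and 5.67 in vehicle livers. The DMPT groups were separate and the p-toluidine groups overlapped. Rps27l rose 2.02-fold with DMPT (adjusted p = 9.04e-05) and stood at -0.14 ± 0.17 with p-toluidine, a difference of 1.16 (0.68 to 1.63, adjusted p = 0.0656). Its adjusted p was 0.000517 with only the arrays compared, and lay between 0.0353 and 0.212 when single arrays were left out. Whether its probe set also catches transcripts of the paralog was not tested.

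Kifc3, a kinesin motor gene, stood at 5.22, 5.28, 5.23, 5.00 and 5.22 in DMPT-dosed livers, against 4.86, 4.8, 4.49, 4.51 and 4.71 in DMPT vehicle livers. With p-toluidine it stood at 4.24, 4.6, 4.42, 4.28 and 4.35 in dosed livers, against 4.53, 4.52, 4.63, 4.39 and 4.6 in vehicle livers. All DMPT-dosed arrays were above their vehicle arrays, and the p-toluidine groups overlapped. The difference of 0.67 (0.41 to 0.93, adjusted p = 0.0656) passed with only the arrays compared (adjusted p = 0.0173). Dhx34, an RNA helicase gene of nonsense-mediated decay, had a difference of -0.44 (-0.62 to -0.26, adjusted p = 0.0656), which also passed with only the arrays compared (adjusted p = 0.0341). Jund, a subunit of the transcription factor AP-1, stood at 0.29 ± 0.17 with DMPT and fell by 0.79 with p-toluidine (adjusted p = 0.00656). Its difference was 1.08 (0.61 to 1.55, adjusted p = 0.0934) by the brightest of 3 probe sets and 0.39 by their mean. The tRNA methyltransferase gene Trmt12 (0.79), Atxn1l (0.75), Sowahb (0.57), the zinc finger gene Zxda (0.54), the histone demethylase gene Kdm4c (0.53) and the acetyltransferase gene Ep300 (0.41) completed the 10, each with the higher response to DMPT and an adjusted p of at least 0.0934. Of these, Trmt12 passed with only the arrays compared (adjusted p = 0.0198). Kdm4c was dim, at 1.54 to 1.84 in DMPT-dosed and 0.70 to 1.15 in p-toluidine-dosed livers, below the array medians. Zxda also lay below them, at 2.52 to 2.93 in DMPT-dosed and 1.76 to 2.09 in p-toluidine-dosed livers. Trmt12 did so in p-toluidine-dosed livers (2.33 to 2.73). The effect of these low levels was not tested.

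**Figure D3:**
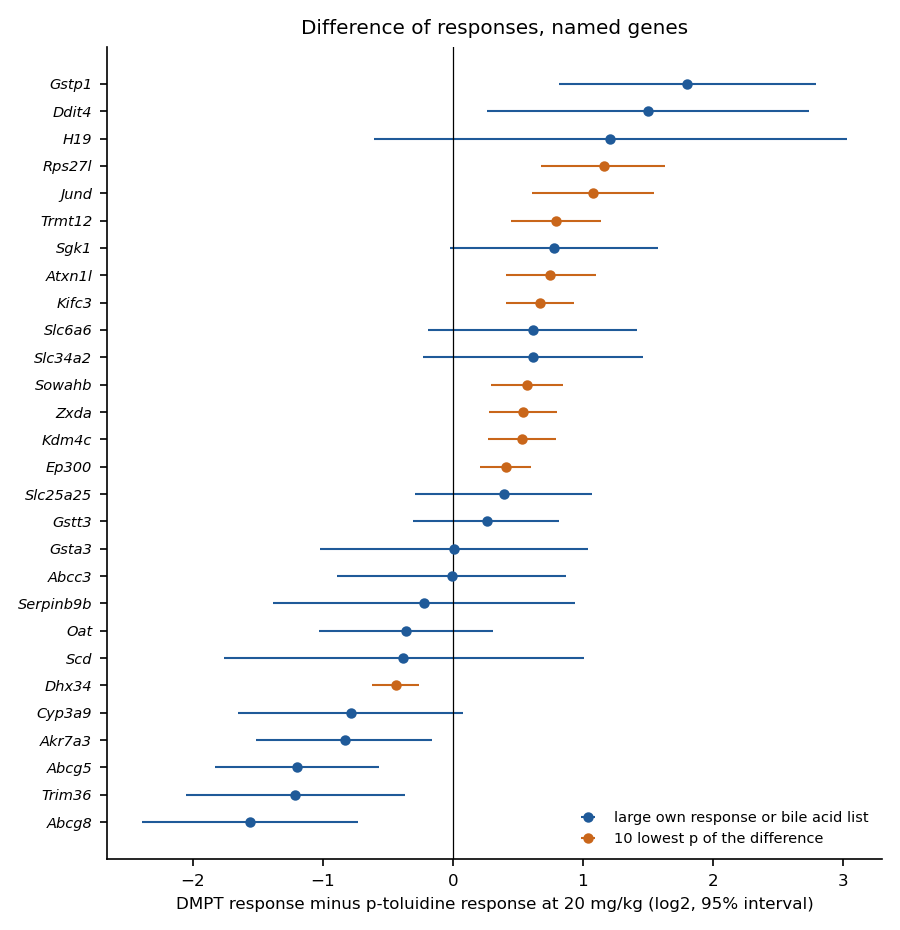
DMPT response minus p-toluidine response at 20 mg/kg (log2; point, estimate; line, 95% interval) for the genes with the largest own responses and 2 genes of the bile acid list (blue) and for the 10 genes of lowest p, chosen after their values were seen (orange). The intervals of Gstp1, Abcg5 and Abcg8 exclude 0 and those of Abcc3, Gsta3, Gstt3 and Scd include it, and no gene passed after adjustment.

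Of the 39 probe sets called with only the arrays compared, 8 were the brightest probe set of a named gene, 19 were dimmer probe sets of a gene with a brighter one, and 12 had no symbol or several. Dimmer probe sets made up 21.3% of all those tested. The 19 had a median difference of 0.97, while the brightest probe sets of the same genes had a median of 0.11 and a range of -0.16 to 0.48. The 19 were chosen by the call on this same difference and the brightest ones were not, so a gap in this direction follows in part from the choice. Which of a gene's probe sets measures it better was not tested.

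The cell division and DNA replication genes had the widest gap between list medians. Of 33 members, 0 rose and 4 fell with DMPT, and 0 rose and 1 fell with p-toluidine, and the medians were -0.47 and -0.01. The median difference was -0.42, against -0.02 over all probe sets, and 1 member had a positive estimate. The difference was called for 0 members, and 5 had an unadjusted p of at most 0.05, all lower with DMPT. Over all genes that share was 7.84%, 4.46% higher and 3.38% lower. The mean log2 level over the list was 4.42, 4.54, 4.84, 4.89 and 4.37 in DMPT-dosed livers, against 4.61, 5.17, 5.33, 5.07 and 5.28 in DMPT vehicle livers. The p-toluidine-dosed livers had 3.96, 3.90, 4.14, 4.20 and 4.06, against 4.31, 4.11, 4.49, 3.89 and 3.62 in p-toluidine vehicle livers. DMPT-dosed arrays lay below the DMPT vehicle arrays except replicate 1 of the vehicle, and the p-toluidine groups overlapped. Mcm5, a subunit of the replicative helicase, fell by 0.66 with DMPT (adjusted p = 0.000755) and stood at -0.03 ± 0.13 with p-toluidine, a difference of -0.63 (-0.99 to -0.27, adjusted p = 0.257). Mcm6 fell by 0.90 and Mcm7 fell by 0.47 with DMPT, against -0.13 ± 0.26 and -0.16 ± 0.12 with p-toluidine, while Ccnd1 fell with both, as given above. The mitotic genes Ccnb1 and Aurkb had differences of -0.89 (-1.74 to -0.04) and -0.82 (-1.58 to -0.07), with an adjusted p of 0.652 and 0.636. Leaving out single arrays moved the median difference between -0.49 and -0.33.

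Of 24 genes of the integrated stress and unfolded protein response, 0 rose and 3 fell with DMPT (the chaperone genes Hspa5 and Hsp90b1, and Creld2), and 0 changed with p-toluidine. Atf3, a stress-induced transcription factor, stood at 2.99, 6.74, 3.53, 5.81 and 4.63 in DMPT-dosed livers, against 3.4, 3.60, 3.21, 2.98 and 3.29 in DMPT vehicle livers, and at 1.73, 2.60, 1.81, 1.78 and 1.83 in p-toluidine-dosed livers, against 1.95, 1.62, 2.70, 2.04 and 2.23 in p-toluidine vehicle livers. The DMPT-dosed arrays of Atf3 were spread over a wide range, and the difference of 1.60 (0.18 to 3.02) had an adjusted p of 0.626. Its p-toluidine-dosed and p-toluidine vehicle values all lay below the array medians, and the effect of this low level was not tested. Fgf21, a fasting hormone, had a difference of 1.59 (-0.24 to 3.42, adjusted p = 0.737). Of 12 heat shock proteins, 0 rose and 3 fell with DMPT and 0 rose and 1 fell with p-toluidine. Of 17 p53 target and DNA damage genes, 1 rose and 2 fell with DMPT (falls of Phlda3 and Mgmt). With p-toluidine, 0 of them rose and 1 fell (Phlda3).

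**Figure D4:**
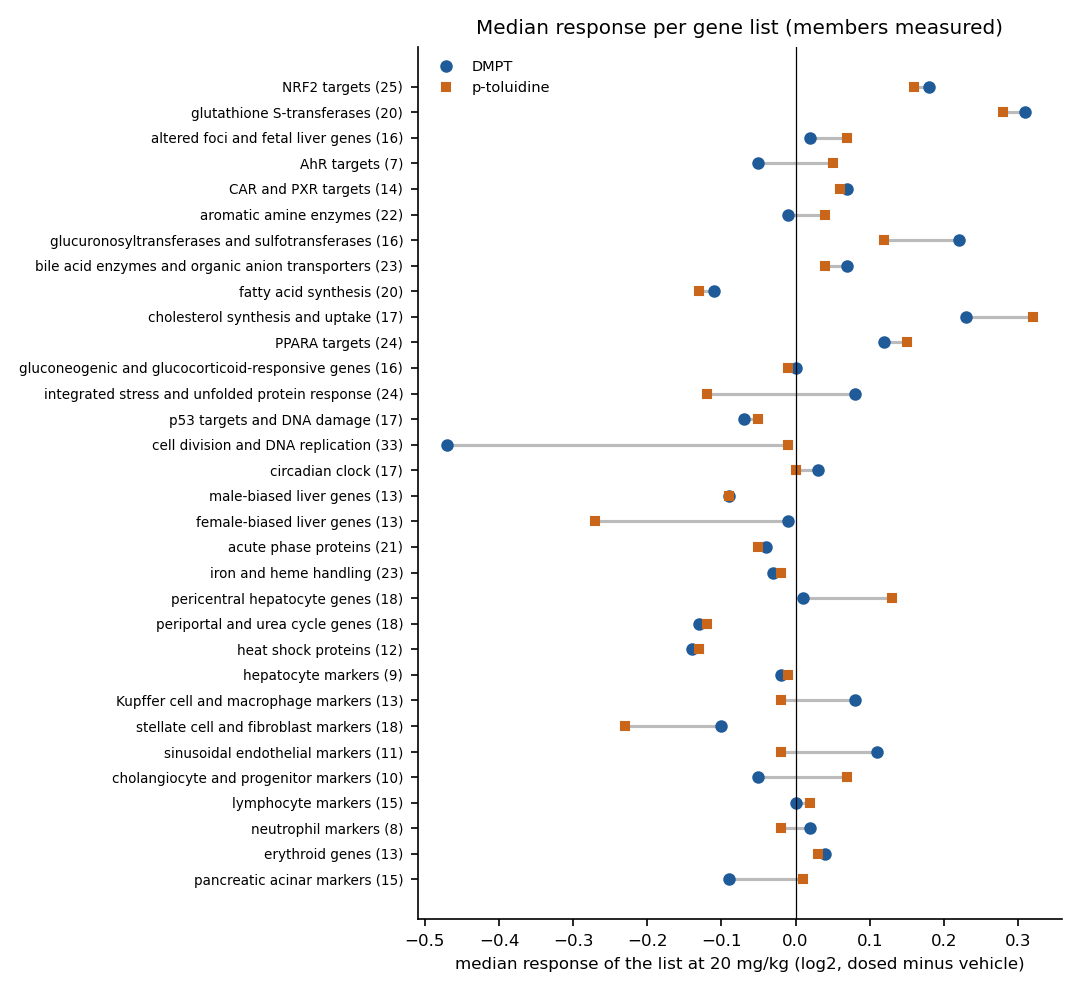
Median response per gene list at 20 mg/kg (log2, dosed minus own vehicle; circle, DMPT; square, p-toluidine; number of members measured in brackets). The medians lay furthest apart for the cell division and DNA replication list (-0.47 with DMPT and -0.01 with p-toluidine), and no member of any list passed the test of the difference.

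The counts of the remaining lists stand beside 3.58% of all genes called with DMPT and 1.72% called with p-toluidine. Iron and heme genes (23 members) had 1 rise and 2 falls with DMPT and 1 rise and 0 falls with p-toluidine, acute phase proteins (21) 1 rise and 1 fall with DMPT and 0 changes with p-toluidine, pericentral genes (18) 1 rise and 2 falls with DMPT and 2 rises and 0 falls with p-toluidine, and periportal genes (18) 0 rises and 1 fall with each. Gluconeogenic and glucocorticoid-responsive genes (16) had the rise of Ddit4 with DMPT and the fall of Sgk1 with p-toluidine. Altered foci and fetal liver genes (16) had 4 rises and 0 falls with each chemical, and male-biased genes (13) 1 rise and 0 falls with each. Female-biased genes (13) had 1 rise and 1 fall with DMPT, and 1 rise and 0 falls with p-toluidine. Circadian clock genes (17) and hepatocyte markers (9) each had 0 rises and 1 fall with DMPT and 0 changes with p-toluidine. Hfe, the hemochromatosis regulator of hepcidin, stood at 0.08 ± 0.08 with DMPT and rose by 0.35 ± 0.08 with p-toluidine (adjusted p = 0.00958), a difference of -0.28 (-0.50 to -0.06, adjusted p = 0.577). Of 13 Kupffer cell and macrophage markers, 1 rose and 0 fell with DMPT, and 0 changed with p-toluidine (list medians 0.08 and -0.02). The marker that rose was Cd14 (0.81 ± 0.19 with DMPT and 0.58 ± 0.19 with p-toluidine), which is also on the acute phase list. In stellate cell (18), sinusoidal endothelial (11), lymphocyte (15), neutrophil (8), erythroid (13) and pancreatic acinar (15) markers, 0 changed with either chemical in the limma fit. The mean over the stellate cell markers was 5.50 to 5.65 in DMPT-dosed and 5.39 to 5.75 in DMPT vehicle livers, and 4.70 to 4.96 in p-toluidine-dosed and 4.98 to 5.14 in p-toluidine vehicle livers. The p-toluidine groups did not overlap, and the part of this shift in the other results was not tested. Lymphocyte and acinar markers averaged 2.87 and 2.79 in DMPT-dosed livers and 2.88 and 2.82 in DMPT vehicle livers. They averaged 2.20 and 2.21 in p-toluidine-dosed livers and 2.21 and 2.19 in p-toluidine vehicle livers. These means lay below the array medians of every group. Whole liver pieces were measured, so fewer cells of a type and less RNA per cell cannot be told apart.

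Across the doses, the gap at Gstp1 was widest at 6 and 20 mg/kg. The DMPT response of Gstp1 was 0.33, 1.52, 4.16, 5.48 and 5.91 at 1, 6, 20, 60 and 120 mg/kg, and the p-toluidine response was 0.00, 0.12, 2.36, 5.34 and 6.41. These responses share the vehicle arrays of each chemical. The response of Gstt3 was 0.64, 1.32, 1.76, 2.13 and 2.47 with DMPT and 0.29, 1.01, 1.5, 2.34 and 2.43 with p-toluidine. The response of Abcg8 was 0.07, -0.20, -0.20, -0.73 and -0.79 with DMPT, and 0.95, 0.44, 1.36, 0.46 and 0.05 with p-toluidine. Rps27l stood at 0.33, 0.55, 1.02, 1.05 and 1.58 with DMPT and at -0.32, -0.13, -0.14, 0.06 and 0.43 with p-toluidine. The median of the cell division list was -0.32, -0.54, -0.47, 0.17 and 0.55 with DMPT, and -0.01, 0.11, -0.01, 0.34 and 0.66 with p-toluidine.

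Neither dose step was called. The difference of responses changed for 0 probe sets (0.0%) between 6 and 20 mg/kg, where 1838 (5.92%) had an unadjusted p of at most 0.05. Between 20 and 60 mg/kg it also changed for 0 (0.0%), with 1714 (5.52%) at that unadjusted level. The difference itself was called for 0 probe sets at 1, 6 and 60 mg/kg (0.0% each). At an unadjusted p of at most 0.05 the count was 2160 (6.96%) for the dose of 1 mg/kg, 1876 (6.04%) for 6 mg/kg and 1488 (4.79%) for 60 mg/kg. At 120 mg/kg it was called for 2 (0.00644%), with 2059 (6.63%) at that unadjusted level.

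**Figure D5:**
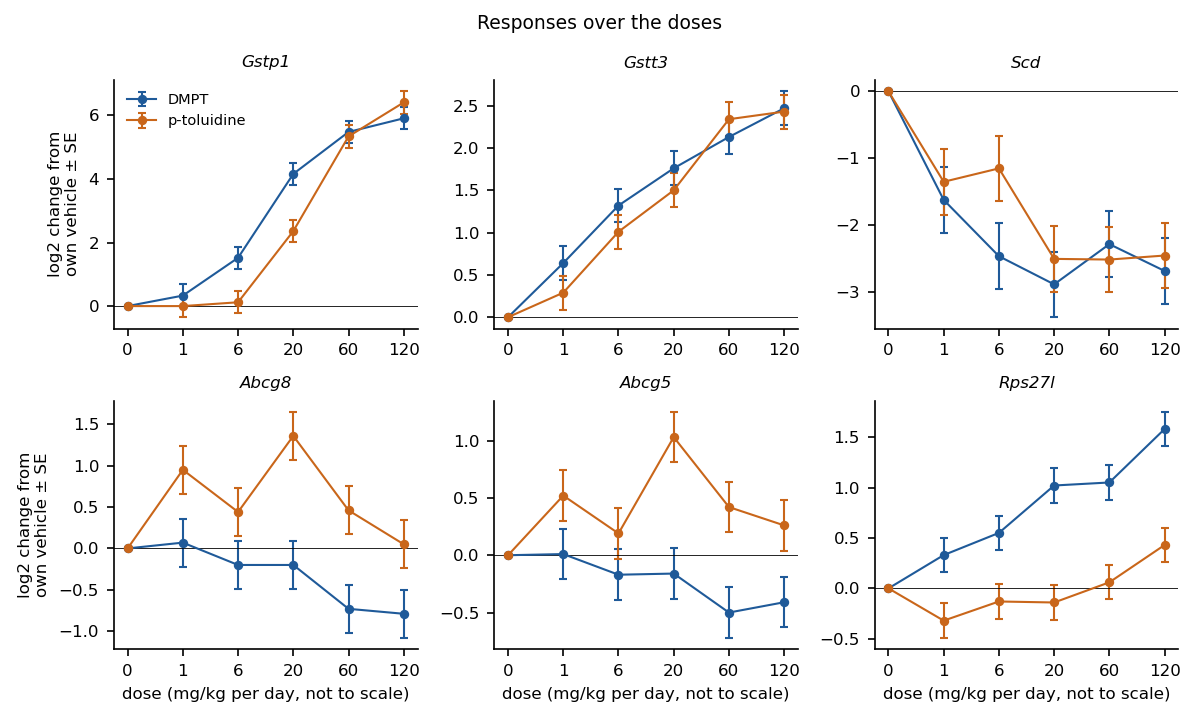
Response over the doses for 6 genes (log2 change from own vehicle ± SE of the limma fit; dose axis in even steps, not to scale; 0, vehicle). The Gstp1 curves are apart at 6 and 20 mg/kg and close at 60 mg/kg, the p-toluidine response of Abcg8 and Abcg5 is highest at 20 mg/kg, and the Rps27l estimate is higher with DMPT at every dose.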

How the data were processed

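Each sample's RNA was measured on 1 Affymetrix array. The deposited values are RMA output per the submitters' processing notes (no version given), and the authors' table was read as log2 expression per probe set, a scale inferred from RMA and from the range of 0.0507 to 13.88, on which every fold depends. The 2 chemicals' arrays lie at different levels and appear to have been normalized separately, so each response was taken against its own vehicle. Of 31099 probe sets, 57 controls were left out and 31042 tested, and 20826 had 1 gene symbol in the platform annotation (14217 genes, each represented by its brightest probe set). limma 3.58.1 in R 4.3.3 (lmFit, eBayes) was fitted to all 60 arrays with 12 group means, and Benjamini-Hochberg adjusted p-values of at most 0.05 were called. "Rose" and "fell" are used of called responses. The code was tested on simulated data.

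The number of arrays, 5 per group, limits the precision. Named genes were the 5 called genes with the greatest rise and the 5 with the greatest fall per response and the 2 members of each list with the largest difference, without provisional symbols. The 10 genes of lowest p and 15 genes called with both chemicals were added after their values were seen, and other members are named as examples of their lists. The members and lists were chosen with earlier results of these data known. Alternatives changed the arrays fitted, normalization, filter, prior, block, covariate and probe set, or left out single arrays. Promoter sequences are RefSeq's (GRCr8), and 63 of 75 genes higher with both and 29 of 32 lower with both had one.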

Additional observations from a re-analysis of the deposited data

Results flagged for a closer look

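Of 360 groups of 5 arrays, 26 held an array whose gap to the nearest of the others exceeded the critical share of the group's range, where chance gives about 18 (5%). In p-toluidine vehicle replicate 5, Mup5 stood at 3.05 (others 7.32 to 8.24), Sult1e1 at 9.56 (11.28 to 11.67), Mt2A at 8.41 (6.30 to 6.77), A2m at 7.54 (5.03 to 5.31) and Hfe at 5.57 (5.78 to 5.86). In DMPT-dosed replicate 1, Mup5 stood at 6.98 (3.14 to 3.37) and Cyp3a9 at 3.03 (2.23 to 2.43). In DMPT vehicle replicate 1, the macrophage gene Adgre1 stood at 4.88 (5.35 to 5.51) and Trim36 at 4.26 (4.10 to 4.14).

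Among further p-toluidine-dosed arrays, replicate 1 had Crot at 8.29 (8.93 to 9.10) and Pecam1 at 4.16 (4.32 to 4.39). Replicate 2 had Atf3 at 2.60 (1.73 to 1.83) and Gpx2 at 5.14 (4.58 to 4.72). Replicate 3 had Gsta3 at 6.98 (7.65 to 7.85) and Slc7a11 at 1.35 (1.60 to 1.71), and replicate 5 had Sds at 4.02 (3.37 to 3.52). Among p-toluidine vehicle arrays, replicate 1 had Phlda3 at 5.03 (5.49 to 5.67), replicate 2 Sds at 3.82 (3.48 to 3.53), replicate 3 Abcg8 at 3.16 (4.32 to 4.51) and Nkg7 at 2.00 (2.44 to 2.55), and replicate 4 Inmt at 7.2 (4.07 to 4.96). Among DMPT-dosed arrays, replicate 4 had Cyp1b1 at 3.06 (3.21 to 3.27) and Kifc3 at 5.00 (5.22 to 5.28), and replicate 5 had Akr7a3 at 8.0 (9.02 to 9.26). Among DMPT vehicle arrays, replicate 2 had Slc6a6 at 7.83 (6.78 to 7.04) and replicate 3 Hspe1 at 11 (10.73 to 10.81).

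For 6 of the 90 named genes, every DMPT-dosed array lay on one side of its vehicle mean and every p-toluidine-dosed array on the opposite side. Trmt12, Atxn1l, Sowahb, Kdm4c and Ep300 had been named for the low p of this same difference, which favours such a split. Tpmt had been named for the size of this difference within its list, which favours it too. No share over all genes is given, so the count is no result about these genes. The differences were 0.79 for Trmt12, 0.75 for Atxn1l, 0.57 for Sowahb, 0.53 for Kdm4c, 0.41 for Ep300 and -0.30 for Tpmt, a thiopurine methyltransferase gene. The limma test of these differences gave adjusted p-values of 0.0934, 0.101, 0.148, 0.148, 0.144 and 0.549.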

How the results depend on the processing

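The difference of responses had 0 calls with quantile normalization, median centring, the intensity-dependent prior and the beta-actin covariate. It had 39 calls with only the arrays compared, 4 with each chemical fitted on its own arrays, 4 with dim probe sets left out and 1 with the replicate block. Of 2 alternatives chosen after seeing the data, leaving out 5 DMPT arrays of narrow spread gave 3 calls and array weights gave 6. The cause was not tested. Leaving out single arrays gave 0 to 18 calls (18 without DMPT vehicle replicate 5; 1 each without DMPT vehicle replicate 1, DMPT-dosed replicate 4 and p-toluidine-dosed replicate 2). The DMPT count was 1805 with array weights, 721 to 1077 in the other alternatives, and 560 to 708 without single arrays (560 without DMPT-dosed replicate 4 and 563 without DMPT vehicle replicate 3). The p-toluidine count was 133 with only the arrays compared, 244 on its own arrays, 287 to 581 in the others, and 188 to 356 without single arrays (233, 220 and 215 without dosed replicate 1, 2 or 3, and 234 and 188 without vehicle replicate 2 or 4). Both dose steps had 0 calls throughout.

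The replicate numbers do not pair the samples: same-numbered dosed and vehicle arrays correlated at -0.265 to 0.150 in their deviations, above 0.1 in 1 of 10 pairs, and the replicate block gave 809 DMPT and 324 p-toluidine calls. Of 90 named differences, 13 changed sign on leaving out some single array, Abcc3 (-0.32 to 0.33), Gsta3 (-0.43 to 0.29) and Scd (-0.78 to 0.30) among them, and 4 did so in another alternative (Abcc3, Gsta3, Crot and Ccnd1), none of them called. Differences that gained a call were those of Kifc3 (adjusted p 0.0173 to 0.0469 in 6 alternatives), Rps27l (0.000517 to 0.05 in 4), Dhx34 (0.0338 to 0.0411 in 4) and Trmt12 (0.00714 to 0.0411 in 3), and Abcg5 with only the arrays compared, beside those on leaving out single arrays. Taking the mean of all probe sets in place of the brightest moved the differences of Jund (0.39), Atxn1l (0.46), Ep300 (0.17), Per2 (-0.04), Slc1a2 (-0.23), Hnf4a (0.02) and Ank1 (-0.12). Signal over background was not analysed here.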
